A study of Homo sapiens with 3 samples.

Results

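The 10 genes described here are the TGF-beta ligands TGFB1, TGFB2 and TGFB3, the receptors TGFBR1 and TGFBR2, the signal transducers SMAD2, SMAD3 and SMAD4, the inhibitory SMAD7 and the corepressor gene SKIL. They were found by gene symbol on the array, which gave 13 of 53617 probe sets, and they are 10 of 29402 genes with a single symbol. The set was chosen by its log2 values on the ARID1A siRNA and mock arrays, so the differences between these arrays are given as a description, without a test. The cells were SAS, an established line of human oral squamous carcinoma, and 3 Affymetrix Human Gene 2.0 ST arrays were run. In 2 of them the cells had been transfected with siRNA against ARID1A, the DNA-binding subunit gene of the nucleosome remodeller SWI/SNF, using Lipofectamine RNAiMAX. The remaining array is labelled mock. The siRNA arrays are called array 108 and array 109 after their titles. The labels leave unsaid what 108 and 109 stand for, if a control siRNA was given to the mock cells, and if the siRNA arrays are of separate cultures. Knockdown by siRNA leaves part of the target transcript in place, and all arrays come from 1 cell line.

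TGF-beta ligands are secreted in a latent form, and once freed they bind the type II receptor TGFBR2, which recruits and phosphorylates the type I receptor TGFBR1. The activated type I receptor phosphorylates SMAD2 and SMAD3, which join SMAD4 and act on target genes in the nucleus, while SMAD7 blocks the receptor and SKIL represses SMAD complexes, and both are themselves induced by the pathway. In squamous epithelium TGF-beta is known to restrain proliferation, and in carcinoma cells it is also known for inducing matrix and mesenchymal genes.

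With so few arrays, and a mock array without a replicate, their number limits the precision. ARID1A itself was at log2 6.79 on the mock array, 5.72 on array 108 and 5.32 on array 109, so it was lower on both arrays labelled as knockdown. The mean of the authors' negative control probe sets, taken here as the background, lay at log2 4.36, 4.65 and 4.43 on array 108, array 109 and the mock array. Of 10 squamous epithelial markers, 7 lay above it on all arrays, including TP63, KRT5 and DSG3, and none lay below it on all arrays. PTPRC, a leukocyte marker, and PDGFRA, DCN and LUM, fibroblast markers, were at or below it on every array, whereas FAP, COL1A1 and CSF1R were above it. Intron control probe sets, 3575 in all, differed from the mock array by a mean log2 of -0.1 on array 108 and 0.12 on array 109, and their part in the results below was not tested.

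The stretches upstream of TGFB2, TGFBR2 and TGFB1 are shown because these members had the largest differences from the mock array. Each is the 250 bases before the first transcription start listed by RefSeq on GRCh38.p14, at chr1:218345086-218345335 on the plus strand, chr3:30606106-30606355 on the plus strand and chr19:41353923-41354172 on the minus strand. Capitals mark matches to the E-box CACGTG, the TGACG core of the cyclic AMP response element, the GC box GGGCGG and the SMAD motif CAGAC, each searched on both strands, and to the TATA box TATAAA on the strand shown.
TGFB2: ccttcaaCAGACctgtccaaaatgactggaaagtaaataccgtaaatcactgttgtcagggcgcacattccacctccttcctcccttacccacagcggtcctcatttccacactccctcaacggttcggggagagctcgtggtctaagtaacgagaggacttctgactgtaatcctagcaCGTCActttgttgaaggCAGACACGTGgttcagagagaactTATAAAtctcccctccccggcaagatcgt
TGFBR2: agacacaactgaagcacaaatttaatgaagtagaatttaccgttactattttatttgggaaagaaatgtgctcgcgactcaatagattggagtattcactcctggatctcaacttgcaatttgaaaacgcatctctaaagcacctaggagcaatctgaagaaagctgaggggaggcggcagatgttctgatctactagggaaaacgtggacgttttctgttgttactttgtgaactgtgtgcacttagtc
TGFB1: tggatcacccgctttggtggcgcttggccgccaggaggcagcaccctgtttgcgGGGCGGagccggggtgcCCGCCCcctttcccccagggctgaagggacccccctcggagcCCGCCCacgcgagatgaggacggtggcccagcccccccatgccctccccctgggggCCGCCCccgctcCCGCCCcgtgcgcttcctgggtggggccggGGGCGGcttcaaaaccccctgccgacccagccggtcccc
The TGFB2 stretch held a TATA box beginning 29 bases before the start and a TGACG core at 70 bases. It held SMAD motifs at 243 and 53 bases, the nearer of which shares its last base with an E-box at 49 bases. Among 27305 stretches of the same length, 1 per gene, 7.17% held the TATA box, 6.49% the E-box, 21.7% the TGACG core and 37.8% the SMAD motif. TGFB1 held 6 GC boxes and none of the other motifs, in a stretch of 76.8% G and C. A GC box was found in 42.3% of all stretches. The TGFBR2 stretch had 40.8% G and C and none of these letters, and RefSeq lists 2 starts for this gene, of which the first was searched. A match is a description of the letters only.

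The largest difference among the members was in the ligand gene TGFB2. The ligand gene TGFB1 went the other way, with a mean of -0.56, similar in size to the 0.54 of the receptor gene TGFBR2. TGFB2, on chromosome 1, encodes the ligand that binds TGFBR2 poorly without the accessory receptor TGFBR3. It was at log2 9.16 on array 108, 9.41 on array 109 and 8.09 on the mock array. Both siRNA values lay above the mock value and well above the background. This was 2.1-fold and 2.5-fold higher, a mean log2 difference of 1.19 ± 0.18 (SD, n = 2), and the SD does not include any spread between mock cultures. Fitted with limma, where the unreplicated mock array takes its spread from the siRNA arrays, the standard error of this difference was 0.21. In the authors' deposited table TGFB2 carried the flag for 2-fold higher on both siRNA arrays, and no other member carried a flag in either direction.

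TGFB1, on chromosome 19, encodes the most widely expressed ligand of the family. It was at log2 8.18 on array 108, 8.16 on array 109 and 8.73 on the mock array. The siRNA values differed from each other by 0.02 and both lay below the mock value, by 1.46-fold and 1.49-fold. The mean log2 difference was -0.56 ± 0.01 (SD, n = 2), with a limma standard error of 0.19 once the spread of other genes is taken into account. In bulk RNA, a lower value in fewer cells and in less RNA per cell cannot be told apart.

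TGFB3, on chromosome 14, was at log2 3.89 on all 3 arrays, below the background on each, so it has only an upper bound here and no fold is given. The antisense RNA gene TGFB2-AS1, chosen after its values were seen, differed from the mock array by 0.25 on array 108 and 0.27 on array 109. Whether its probes tell the strands apart was not given in the sources used here.

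**Figure D1:**
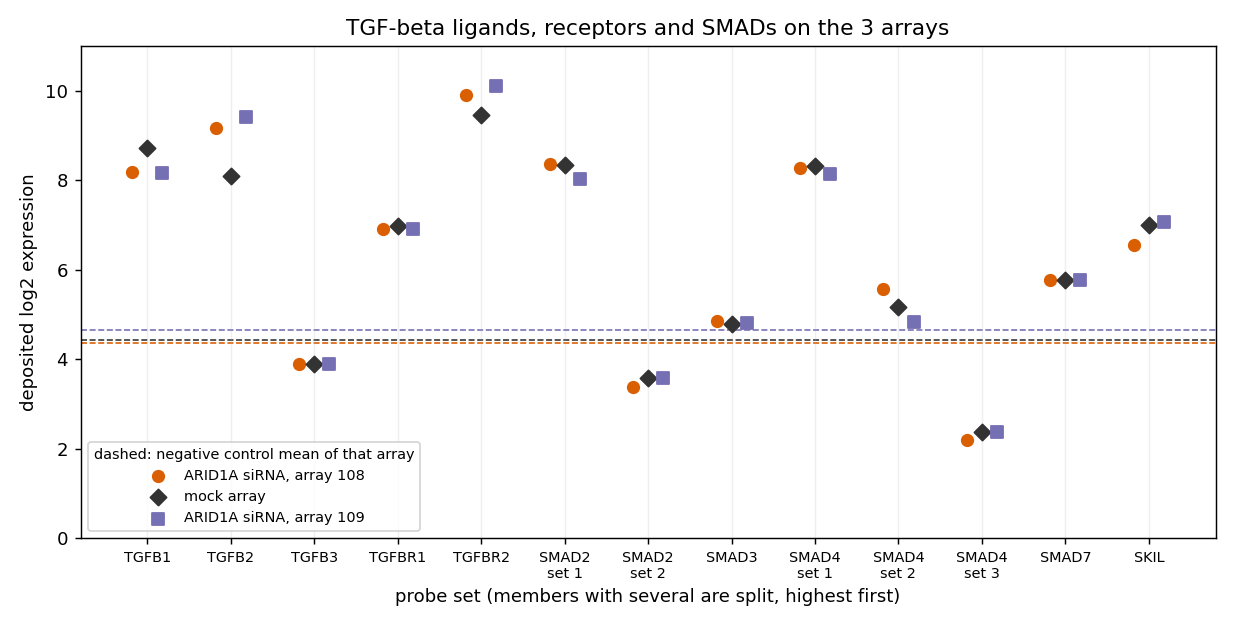
Deposited log2 expression (y axis) of the 13 probe sets of the 10 members (x axis) on array 108, the mock array and array 109, with the negative control mean of each array as a dashed line. TGFB2 and TGFBR2 sit above the mock value on both siRNA arrays and TGFB1 below it, while TGFB3 sits at 3.89 on all arrays, under every dashed line.

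The receptors differed from each other. TGFBR2, the type II receptor on chromosome 3, was at log2 9.90 on array 108, 10.1 on array 109 and 9.46 on the mock array. Both siRNA values were above the mock value, by 1.36-fold and 1.56-fold, so only array 109 passed 1.5-fold. The mean log2 difference was 0.54 ± 0.14 (SD, n = 2), with a limma standard error of 0.18. TGFBR1, the type I receptor on chromosome 9, was at log2 6.92 on both siRNA arrays and 6.98 on the mock array. That difference of -0.06 is under its limma standard error of 0.19. TGFBR1, TGFB3 and SMAD7 are the 3 members with exactly equal siRNA values, which 48.2% of all genes tested had, so no spread between those arrays can be given for them.

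Among the receptor-activated SMADs, no probe set differed by 1.5-fold on either array. SMAD3, on chromosome 15, was at log2 4.86, 4.82 and 4.78 on array 108, array 109 and the mock array, just above the background, with differences of 0.09 and 0.05. SMAD2, on chromosome 18, has 2 probe sets. The brighter one, matched to a RefSeq transcript, was at log2 8.36, 8.02 and 8.34, so array 108 was at the mock level and array 109 was 1.25-fold lower. The other, matched to an Ensembl transcript, stayed below the background on all arrays. SMAD4, the shared partner SMAD on chromosome 18, has 3 probe sets, and its RefSeq probe set was at log2 8.27, 8.14 and 8.32, with differences of -0.06 and -0.18. A second SMAD4 probe set went in opposite directions on the siRNA arrays, at log2 5.58, 4.83 and 5.16, and the third was below the background throughout. Averaged over probe sets, SMAD2 was lower than mock on both siRNA arrays and SMAD4 lay on either side of it. By the brightest probe set of each gene, SMAD4 was lower on both and SMAD2 was not.

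The feedback members gave no shared direction. SMAD7, which recruits ubiquitin ligases to the receptor and is a direct target of the pathway, was at log2 5.78 on all 3 arrays. It lay above the background, and of all genes above it on all arrays 26.7% were likewise equal on all 3. SKIL, on chromosome 3, encodes SnoN, a corepressor that is degraded on signalling and then induced again. It was at log2 6.55 on array 108, 7.06 on array 109 and 7.01 on the mock array. Array 108 was thus 1.37-fold below the mock value and array 109 within 0.05 of it, and SKIL was 1.42-fold higher on array 109 than on array 108. A gap of at least 1.4-fold between the siRNA arrays was found in 5.54% of all genes tested. This was the widest gap between the siRNA arrays among members with 1 probe set, at 0.5 on the log2 scale, and it is wider than the mean difference from mock of -0.2.

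All 10 members passed the filter on low values, which left 20582 genes. Of the 10, 3 were higher than mock on both siRNA arrays (TGFB2, TGFBR2 and SMAD3), against 13.1% of all genes tested, and 3 were lower on both (TGFB1, TGFBR1 and SMAD2), against 16.2%. TGFB3 and SMAD7 were exactly equal on all arrays, as were 38.0% of all genes tested, and with each array centred on its median both counted as lower. At 1.5-fold on both arrays, 1 member, TGFB2, was higher, against 0.34% of all genes, and 0 were lower, against 0.272%. At 2-fold on both arrays 1 member, again TGFB2, was higher, against 0.0389%, and 0 were lower, against 0.0437%. Ranked by the smaller of its differences on the siRNA arrays, TGFB2 was at rank 3 among the 2703 genes higher on both, and TGFBR2 at rank 131. TGFB1 was at rank 67 among the 3335 genes lower on both. Since the rule for the members used this contrast, nothing is read from these counts, and the siRNA arrays share the mock array.

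**Figure D2:**
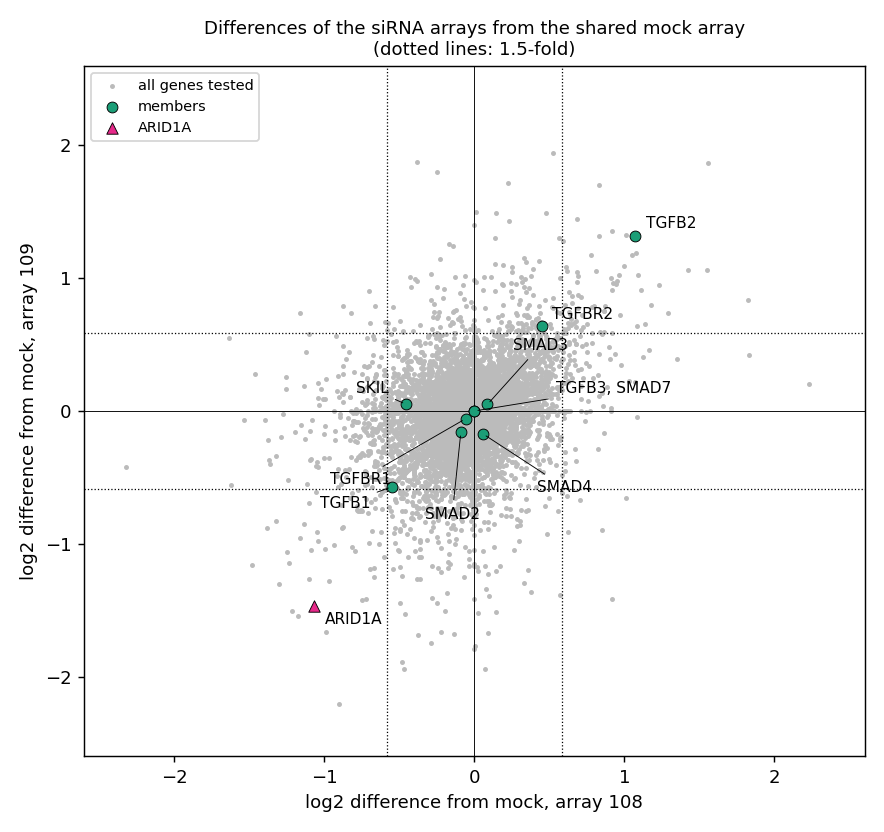
Log2 difference from the mock array on array 108 (x axis) and array 109 (y axis) for all 20582 genes tested (grey), the 10 members (green) and ARID1A (pink triangle), with dotted lines at 1.5-fold. TGFB2 lies beyond 1.5-fold on both axes, TGFBR2 and TGFB1 close to the dotted lines, and the other members near 0 on at least 1 axis.

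The genes nearest to TGFB2 in the pair of differences from mock, by Euclidean distance over these 2 values, were JARID2, a protein of the polycomb repressive machinery, at a distance of 0.059, FAM222B at 0.13 and LINC00960 at 0.15. Around SMAD3 the nearest were COG5, TRAV13-1 and TOLLIP, but 2625 genes lay within 0.1 of it, so its pattern is shared widely. These distances rest on 3 arrays.

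The rest of the pathway was described through 8 lists with 134 genes, of which 124 passed the filter. With limma, 0 of the 20582 genes passed a false discovery rate of 5% in either direction (0.0%), and the lowest adjusted p was 1. At an unadjusted p under 0.05 limma gave 228 genes higher and 225 lower, of which 5 and 4 were in the lists. Of the 124 genes, 32 (25.8%) were higher than mock on both siRNA arrays, against 13.1% of all genes tested, and 26 (21%) were lower, against 16.2%. Limited to genes above the background on all arrays, these were 32 of 106 (30.2%) against 13.8%, and 20 (18.9%) against 21.1%. The counts depend on scaling, since tied genes take a sign once an array is shifted. Of the list genes, 50 were higher under quantile scaling, and 67 were lower with median centring. Tied genes outside the lists take a sign too. No share over all genes is given under these scalings, so these counts are not to be read against the shares above. At 1.5-fold on both arrays 2 list genes were counted as lower, ID1 and SMAD6, of which SMAD6 lay below the background on all arrays, and under both other scalings the count was also 2. Each list's counts are to be read against the shares over all genes tested, 13.1% higher, 16.2% lower and 38.0% equal. Most list genes lay above the background, and over all such genes the shares were 13.8% higher, 21.1% lower and 26.7% equal.

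Among 47 genes that TGF-beta is known to induce, 21 were higher than mock on both siRNA arrays, against 13.1% of all genes tested, and 9 were lower, against 16.2%. Another 7 were equal on all arrays, against 38.0%, and 10 went neither way. Over all genes above the background on all arrays, the shares were 13.8% higher, 21.1% lower and 26.7% equal. Their median log2 difference was 0 on array 108 and 0.05 on array 109, and the median over all genes tested was 0 on each. Tenascin C, TNC, a matrix glycoprotein, was at log2 8.04 on the mock array, 8.57 on array 108 and 8.52 on array 109. COL4A1, a basement membrane collagen chain, was at 7.05 and 7.17 against 6.65, and the growth factor gene PDGFB at 6.99 and 7.17 against 6.6. These genes were named because both siRNA values lay above the mock value, so that is not a separate result. None of them passed the limma test.

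Not all induced genes took that direction. FSTL3, a secreted binder of activin, was at 5.74 and 5.64 against 6.13. SPHK1, a sphingosine kinase, and IL11, a cytokine, were each equal on the siRNA arrays and below mock, by -0.28 and -0.27. SNAI2, a transcriptional repressor of epithelial genes, was at 10.13 on both against 10.35. Named after their values were seen, CCN2 (CTGF), TGFBI and the collagen genes COL1A1, COL1A2 and COL3A1 were within 0.02 of the mock value on both arrays, with COL1A2 and COL3A1 below the background. FN1, LIF and KLF10, chosen likewise, were higher on array 109, by 1.3, 0.89 and 0.78, and within 0.14 of mock on array 108, so the siRNA arrays disagreed about them.

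**Figure D3:**
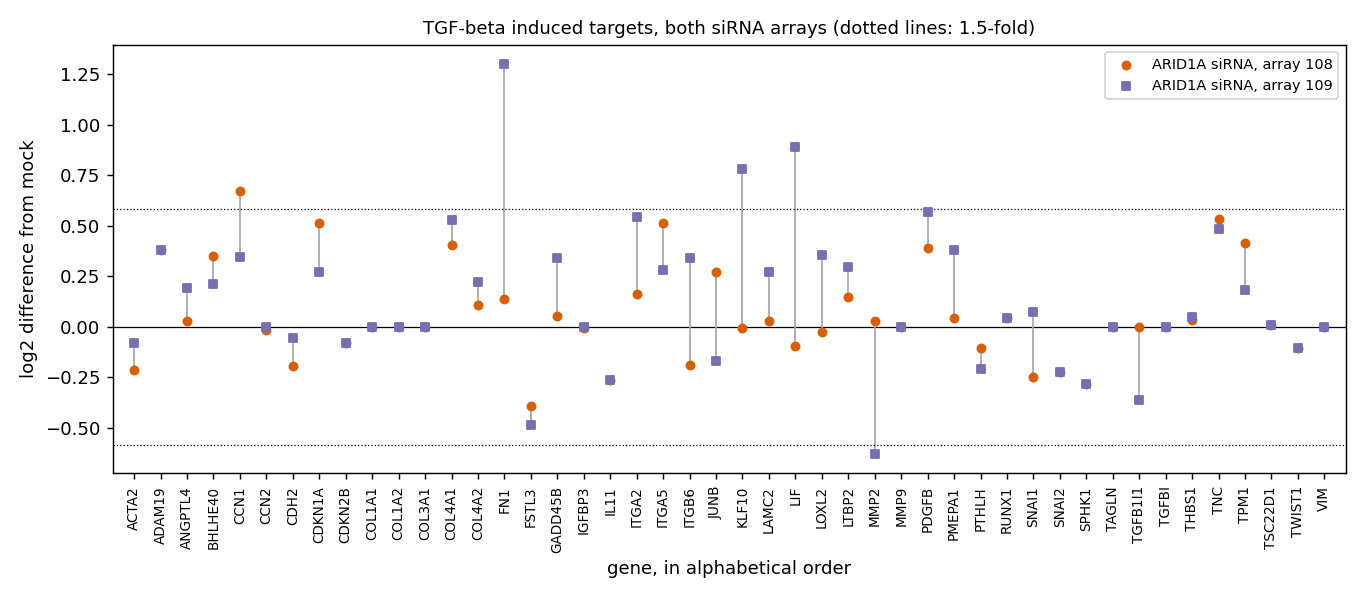
Log2 difference from the mock array (y axis) of 46 TGF-beta induced targets (x axis, alphabetical) on array 108 (circles) and array 109 (squares), with a grey line joining the values of a gene and dotted lines at 1.5-fold. No gene shown passes 1.5-fold on both arrays, and the longest grey line is that of FN1.

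Of 10 genes that TGF-beta lowers in epithelial cells, 4 lay above mock on both arrays and 2 below. ID1, an inhibitor of basic helix-loop-helix factors that BMP signalling induces, was at log2 6.79 and 6.88 against 8.03. Its relative ID3 was at 5.56 and 4.89 against 6.06, and both genes were named because they were lower on both arrays. MYC, the proliferation factor that TGF-beta represses through SMAD3 in epithelial cells, was at 9.88 and 10.14 against 9.54. The epithelial splicing factor gene ESRP2 and the epithelial regulator GRHL2 were each equal on the siRNA arrays, by 0.14 and 0.06 above mock. E-cadherin, CDH1, was 0.53 above mock on array 108 and 0.03 on array 109. Neither ID1 nor any other gene of this list passed limma after adjustment.

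The turnover and feedback genes, a list of ubiquitin ligases, deubiquitinases, phosphatases and inhibitors, were divided too. Of 17 such genes, 6 lay above mock on both arrays and 5 below. The ubiquitin ligase genes SMURF2, SMURF1 and NEDD4L, whose products target receptors and SMADs, were all higher on both arrays. SMURF2 was at log2 9.85 and 10.13 against 9.46, a mean difference of 0.53 ± 0.2 (SD, n = 2), SMURF1 differed by 0.3 and 0.22, and NEDD4L by 0.22 and 0.48. PMEPA1, a membrane protein that sequesters SMADs, differed by 0.04 and 0.38. STUB1, a chaperone-linked ubiquitin ligase, was lower, at 8.7 and 8.34 against 9.02. STRAP, a receptor-associated inhibitor, differed by -0.21 and -0.09, and the deubiquitinase UCHL5 and the phosphatase PPM1A by no more than 0.07 in size.

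In the list for storage and activation of the ligand, 2 of 16 genes were higher on both siRNA arrays and 2 lower, close to the 13.1% and 16.2% of all genes tested. These included LTBP2, a latent binding protein family member, at 0.15 and 0.3 from mock and LTBP3, which holds latent TGF-beta, at -0.07 and -0.24. THBS1, a matrix activator of latent TGF-beta, differed by 0.03 and 0.05. The integrin gene ITGB6, which activates the latent ligand in epithelium and was named after its values were seen, differed by -0.19 on array 108 and 0.34 on array 109. NRROS lay below the background on all arrays.

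In the activin branch, which uses the same SMAD2 and SMAD3, 1 of 13 genes was higher on both arrays and 3 were lower. INHBA, the activin A subunit, was at log2 6.62 on the mock array, 6.85 on array 108 and 8.05 on array 109, so the siRNA arrays were further apart than array 108 was from mock. INHBB, another activin subunit, was equal on both siRNA arrays at 4.81 against 5.01, and NODAL lay below the background. Of 10 accessory and decoy receptors, CD109, a membrane protein that binds TGF-beta and restrains its receptors, was lower, at 8.16 and 7.81 against 8.44, and TGFBRAP1 higher by 0.1 and 0.04. TGFBR3, the accessory receptor for the TGFB2 ligand and chosen after its values were seen, was at 4.40 on all 3 arrays, which is below the background of the mock array and array 109.

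Of 14 SMAD partners, cofactors and corepressors tested, 0 were higher on both arrays and 2 were lower. E2F4, which joins SMAD3 on the MYC promoter, differed by -0.22 and -0.21. ATF2, a partner of SMAD3 and SMAD4, differed by -0.06 and -0.13. Of the 4 SMADs of the BMP branch, 3 were lower on both arrays. SMAD6, the inhibitory SMAD of that branch, was at log2 3.56 on both siRNA arrays and 4.22 on the mock array, below the background on all arrays, so no fold is given. SMAD5, a BMP-activated SMAD, was at 5.34 and 5.39 against 5.57, and SMAD9 differed by -0.07 on each.

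**Figure D4:**
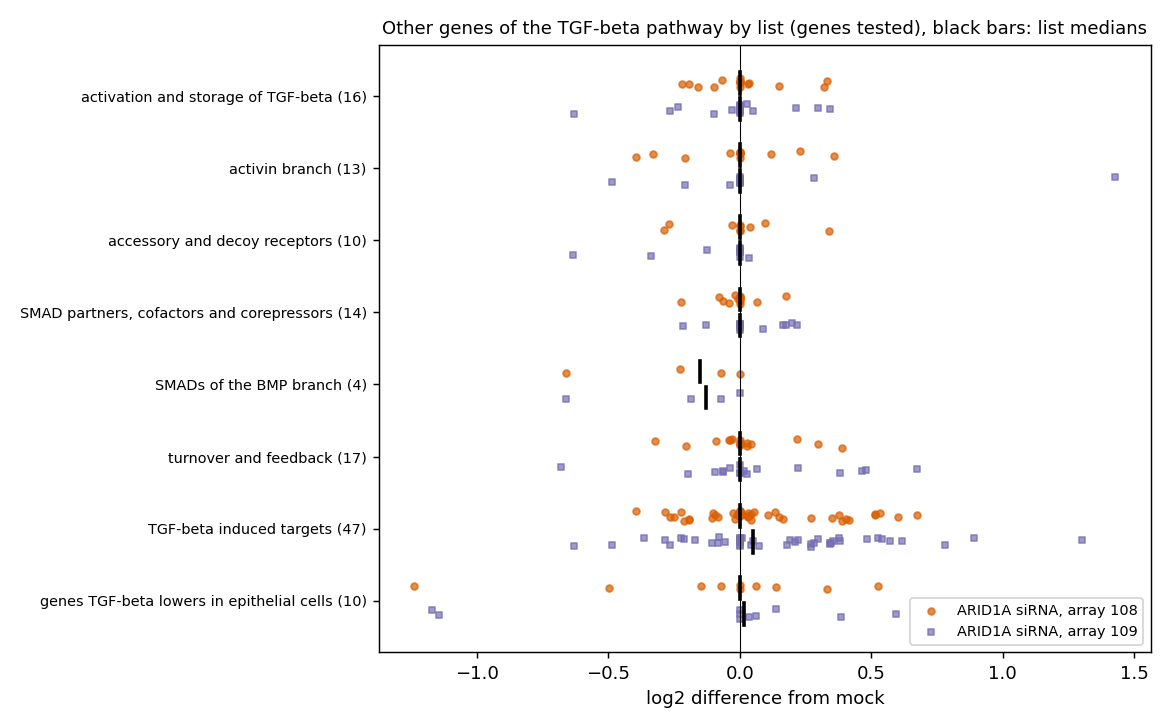
Log2 difference from the mock array (x axis) of the genes tested in the 8 pathway lists (y axis, number of genes in parentheses) on array 108 (circles) and array 109 (squares), with the list median as a black bar. The medians lie between -0.15 and 0.05, and the single points furthest from 0 are INHBA, FN1 and ID3 on array 109 and ID1 on both arrays.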

How the data were processed

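RNA from SAS cells was measured on 3 arrays, 2 labelled ARID1A siRNA and 1 mock. The authors deposited log2 expression per probe set, processed with Affymetrix Expression Console per the submitters' processing notes. The sources used here do not state its version, summary method or background correction. In tables of each sample the authors deposited linear intensity, whose log2 matched those values to within 5e-05. They also deposited a ratio against mock, with 2-fold flags, per the file headers.

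Of 53617 probe sets, 31134 had 1 gene symbol, and 29766 of these were updated through the Entrez identifier. Several probe sets were averaged in 1435 of 29402 genes, and a filter at the 30th percentile of the mean log2 value, 3.52, left 20582 genes. Differences were fitted with limma 3.58.1 in R 4.3.3, two-sided with Benjamini-Hochberg adjustment and 1 residual degree of freedom. Of the genes tested, 48.2% had exactly equal siRNA values, which give a spread of 0, so the trended prior came from genes without such ties, with 4.9 prior degrees of freedom, and was applied to all. An exact permutation test of 2 arrays against 1 cannot go below p = 0.333, so none was used. The fit was tested on simulated data. The p-values set the difference from mock against a spread taken from the siRNA arrays alone. That spread may be technical, and the single mock array adds none to it.

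The members, lists and alternatives were chosen with earlier results of these data known. The text names ARID1A, the members, up to 4 genes each way per list ranked by the smaller difference, and the 3 genes nearest to TGFB2 and to SMAD3, with exceptions stated. Values of some genes are not reported here. Sequences are from RefSeq on GRCh38.p14, which held all 10 members.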

Additional observations from a re-analysis of the deposited data

How the results depend on the processing

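TGFB2, TGFBR2 and TGFB1 kept their direction under quantile scaling and median centring. The other alternatives were the brightest probe set, the linear values and leaving out either siRNA array. Those could not turn the direction of these genes. Each has 1 probe set, the linear values are the same data, and both siRNA values lay on the same side of mock. Of 66 member and ARID1A values under these alternatives, 59 moved by no more than 1 SD and 7 moved further. All 7 were under quantile scaling or median centring. They belong to TGFB3, TGFBR1 and SMAD7, whose SD is 0 because the siRNA values are tied, and to TGFB1, whose SD is 0.01. A small shift exceeds such an SD: TGFB1 went from -0.56 to -0.53 under quantile scaling. Most of the 59 could not have moved further, so their number does not measure stability. Leaving out either siRNA array cannot shift a mean by more than 1 SD, and the linear values hold the same data. Choosing the brightest probe set can only change genes with several probe sets. Among the 59, the sign turned when 1 siRNA array was left out for SKIL, from -0.2 to 0.05 without array 108, and for SMAD4, from -0.06 to 0.06 without array 109. Members lower than mock on both arrays numbered 5 with median centring, as the tied genes TGFB3 and SMAD7 took a sign. Pathway genes higher on both numbered 50 under quantile scaling and those lower 67 under median centring. For these counts no share over all genes is given under the same scaling, so they stand without a comparison.

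Limma called 7 genes higher and 5 lower without the filter, of which 0 were pathway list genes, and 999 and 920 with the ties included in the prior, where 1873 of the calls had tied siRNA values. Limma called 0 under the other 6 settings, with 141 to 743 higher and 152 to 723 lower at an unadjusted p under 0.05. Read on 1 siRNA array alone, 158 to 237 genes were at least 1.5-fold higher and 307 to 357 lower. In the pathway lists these were 2 to 7 and 2 to 6. By any amount, 42 to 48 list genes were higher and 34 to 45 lower, with no share over all genes given. No paired analysis was possible because the mock group holds 1 array and the labels pair none.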
